A study of Homo sapiens with 6 samples.

Results

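Mucins and trefoil factors are among the proteins that intestinal and gastric epithelia place on their luminal surface. The genes followed here were MUC1, MUC2, MUC5AC, MUC12, MUC13, MUC17, MUC20, TFF1, TFF2 and TFF3. They were chosen by name, with earlier results of these data known, and read by all probe sets whose annotation gave exactly 1 of these 10 symbols. This gave 21 of 41091 probe sets with 1 symbol, and 10 of 19775 genes. The RNA came from Caco-2 cells, a human colorectal adenocarcinoma line that forms a polarised, enterocyte-like monolayer. The monolayers had grown for 14 days on a porous support and were then set over THP-1 cells, a human monocytic leukaemia line made macrophage-like by 4 days of phorbol myristate acetate, in plates with 12 wells. Caco-2 expression was measured after 0, 1, 3, 6, 24 and 48 h of coculture, on 1 array at each time. The 0 h array is the baseline, and all 6 arrays are of the same line at the same age at the start of coculture. Monolayers held for the same times with no THP-1 cells below them were not analysed here, so time on the plate and the presence of THP-1 cells cannot be told apart.

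Mucins are long proteins densely covered with O-linked sugars. Secreted gel-forming mucins such as MUC2, the main product of intestinal goblet cells, build the mucus layer, while membrane-bound mucins such as MUC12, MUC13 and MUC17 stand on the apical membrane of enterocytes and form the glycocalyx. Trefoil factors are small, cysteine-rich secreted peptides that are released together with mucins and are known for promoting the migration of epithelial cells over wounds. TFF1 and TFF2 are typical of gastric mucosa, and TFF3 of goblet cells in the intestine.

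By their brightest probe sets the membrane mucins MUC13 and MUC17 rose together in the first hours, and each had its highest signal at 6 h. The other MUC17 probe set, nearer the floor, was not higher at 1 and 3 h. The trefoil factors TFF2 and TFF3 fell, TFF2 mostly by 3 h and TFF3 without a break until 48 h, while TFF1 stayed within 2-fold of 0 h throughout. The other 5 mucin genes were dim. The call rule asked for a 2-fold difference from 0 h, with the brighter array above a floor of 16.2, the 50th percentile of all signals. By this rule 0, 3, 2, 0 and 0 members were higher and 0, 1, 0, 3 and 2 lower at 1, 3, 6, 24 and 48 h. Among the 14623 genes with at least 1 array above the floor, the shares called higher were 1.90%, 3.10%, 4.23%, 3.95% and 3.82% at these times, and the shares called lower 1.44%, 3.52%, 6.45%, 6.14% and 6.14%. MUC1, MUC2 and MUC5AC were under this floor at 0 h and MUC12 less than 2-fold above it, so the rule could not call them lower. Restricted to genes whose brighter array reached 100, which keeps 5 members, 0, 2, 2, 0 and 0 were higher and 0, 1, 0, 2 and 2 lower. The shares of all such genes were 1.96%, 3.77%, 5.38%, 4.53% and 4.84% higher and 0.720%, 3.09%, 6.82%, 6.78% and 6.94% lower. With 1 array per time there is no test, no error and no p-value, so each fold change below compares a pair of arrays.

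The promoters of MUC13 and MUC17 are shown because the brightest probe sets of these genes rose over the same hours. RefSeq promoter windows, which run from 250 bases before to 50 bases after the start of the transcript, were matched for 5 of the 10 members (MUC1, MUC2, MUC12, MUC13 and MUC17). Both windows are of build GRCh38.p14. That of MUC13 lies at chr3:124934702-124935001 on the minus strand and has 41% G and C. That of MUC17 lies at chr7:101019831-101020130 on the plus strand and has 60% G and C. Capitals mark the matches of the 10 motifs searched on both strands. These are the AP-1 motif TGANTCA in both windows and, in MUC13 alone, the HNF1 motif GTTAAT, read there from the other strand.
MUC13: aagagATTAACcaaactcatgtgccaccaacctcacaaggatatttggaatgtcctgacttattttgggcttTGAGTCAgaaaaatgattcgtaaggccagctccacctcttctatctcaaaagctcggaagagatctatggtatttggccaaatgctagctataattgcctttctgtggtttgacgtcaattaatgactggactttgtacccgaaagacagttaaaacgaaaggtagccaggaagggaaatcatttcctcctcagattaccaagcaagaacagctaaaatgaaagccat
MUC17: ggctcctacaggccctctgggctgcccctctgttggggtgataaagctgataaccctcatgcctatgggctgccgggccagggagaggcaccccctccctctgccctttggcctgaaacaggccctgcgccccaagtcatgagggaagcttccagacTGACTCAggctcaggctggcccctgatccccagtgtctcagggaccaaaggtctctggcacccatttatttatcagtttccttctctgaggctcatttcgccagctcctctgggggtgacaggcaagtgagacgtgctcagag
The AP-1 match begins 178 bases before the transcript start in MUC13 and 93 bases before it in MUC17. The same letters occur on either strand in 7.71% of all 35116 promoter windows, and the window of MUC2 holds them as well. The HNF1 letters were found in 6.88% of all windows. The TATA box, searched as TATAAA, was present in 11.5% of all windows and in those of MUC1 and MUC12, in MUC12 only as read from the other strand. A motif for CDX factors, searched as TTTATG, was present in 10.6% of all windows and in that of MUC2. No window of a member held the GATA motif AGATAA, which 10.3% of all windows hold, or the STAT motif TTCNNNGAA, which 7.66% hold. The same was true of the FOXA motif TGTTTAC, held by 3.42% of all windows, the NF-kB motif GGANTTTCC, held by 1.64%, and the EGR motif GCGTGGGCG, held by 0.794%. A looser NF-kB motif, GGG and TTCC with 3 free bases between them, is held by 6.52% of all windows and by no window of a member. No motif searched overlapped another in the MUC13 and MUC17 windows. A match shows that the letters are present and nothing about binding. A motif given as absent is absent only in the letters searched. The MUC17 window, for example, holds tgataa, which differs from the searched GATA motif in its first base and was not searched.

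MUC13, a membrane mucin of the intestinal and colonic surface, was read by a pair of probe sets that followed the same course. Probe set 218687_s_at had signals of 352, 480, 720, 1116, 637 and 309 in order from 0 to 48 h. Probe set 222712_s_at had signals of 105, 138, 285, 458, 356 and 123 in order from 0 to 48 h. Both were lowest at either end of the time course, with a smooth maximum at 6 h. At 6 h MUC13 was 3.17-fold higher than at 0 h by the first probe set and 4.34-fold by the second. Among measured genes, 0.951% had a log2 ratio at 6 h at least as high as the 1.67 of the brighter probe set. They differed most at 24 h, when 222712_s_at was still 3.38-fold above 0 h and 218687_s_at 1.81-fold. From 24 to 48 h the signal decreased in both, and at 48 h it was 3.61-fold lower than at 6 h by 218687_s_at and 3.73-fold lower by 222712_s_at. Both probe sets carry the suffix _s_at, which the manufacturer gives to probe sets that can bind several transcripts.

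MUC17, a large membrane mucin of the enterocyte brush border, had signals of 252, 392, 552, 611, 369 and 332 in order from 0 to 48 h in probe set 232321_at. Every coculture array was above the 0 h array. At 3 h and 6 h the gene was 2.19-fold and 2.43-fold higher, and its log2 ratios of 0.64, 0.55 and 0.40 at 1, 24 and 48 h did not reach 2-fold. The other probe set, 232407_at, lay much closer to the floor, with signals of 25.4, 19.1, 24.3, 38.2, 26.2 and 12.2 in the order of time. Its highest signal was also at 6 h, but its log2 ratio was 0.59 there and it did not show the higher level at 1 and 3 h. The median of both probe sets was not past 2-fold at either time, with log2 ratios of 0.53 and 0.93 at 3 and 6 h. Set against 1 h in place of 0 h, the brightest probe set was also inside 2-fold at both times.

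**Figure D1:**
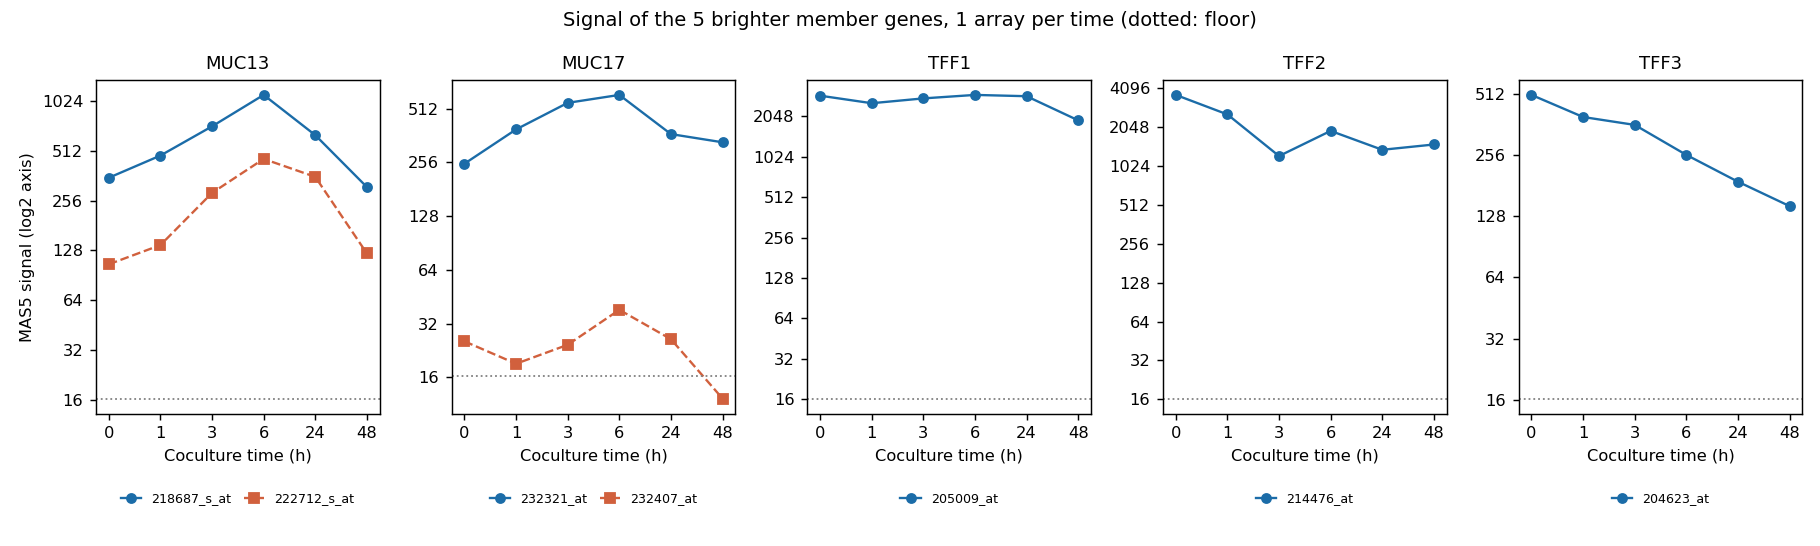
MAS5 signal on a log2 axis against coculture time in hours (evenly spaced, not to scale) for the 5 member genes whose brightest probe set reached a signal of 100. Each point is 1 array, each line 1 probe set, solid for the brightest of a gene, and the dotted line is the floor of 16.2. MUC13 and MUC17 peak at 6 h, TFF3 decreases at each step to 143 at 48 h, and TFF1 stays between 1903 and 2942.

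MUC12, another membrane mucin, lies beside MUC17 on chromosome 7 in the RefSeq gene order of GRCh38.p14, with MUC3A on its other side. It was dim. Its brighter probe set 226654_at had signals of 21.5, 14.3, 22.9, 35.6, 13.1 and 1.69 in order from 0 to 48 h. The highest value was again at 6 h, but it was 1.65-fold above 0 h and the arrays at 1, 24 and 48 h were under the floor. The second probe set of MUC12 was under the floor on all 6 arrays. The brightest probe set of MUC3A had signals of 82.5 at 0 h and 68.6 to 101 later, with log2 ratios between -0.27 and 0.29. Its other measured probe set was higher at 6 and 24 h, by log2 ratios of 0.73 and 0.72. Neither neighbour passed 2-fold against 0 h by the rule, and whether they differed from MUC17 was not tested. For MUC12 at 48 h the floor hides the size of the fall. There it was called lower with the floor at the 30th percentile or with the floor value as a pseudocount, with log2 ratios of -1.75 and -1.07.

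MUC20, a short membrane mucin known to bind the receptor MET, was lower from 3 h on. The brightest of its 4 probe sets, 226622_at, had signals of 47.1, 52.2, 26.8, 26.1, 22.0 and 23.9 in order from 0 to 48 h. The 4 later arrays all lay below the first pair. The gene fell 2.14-fold at 24 h and had log2 ratios of -0.81, -0.85 and -0.98 at 3, 6 and 48 h, just inside the 2-fold limit. Probe set 243774_at was lower at every coculture time, with 46.9 at 0 h against 9.76 at 1 h and 14.4 to 21.9 later, and differed from the others in being low already at 1 h. The remaining pair of probe sets was above the floor on 3 and 1 arrays. MUC20 has a near copy, MUC20P1, among the pseudogenes of chromosome 3 in RefSeq, and which of them a probe set reads was not tested.

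MUC1, the widely expressed membrane mucin, had signals of 14.7, 17.5, 23.6, 23.6, 20.3 and 25.8 over the 6 times in probe set 207847_s_at. The 0 h array was the lowest and the only one under the floor, and no time passed 2-fold. A second MUC1 probe set exceeded the floor at 1 h alone, with a signal of 31.7, and the third was under it on all arrays. The gel-forming mucin MUC2 was read by 1 probe set, with signals of 8.53, 17.6, 27.3, 4.40, 19.3 and 16.7. These values cross the floor in no steady order, and at 3 h MUC2 was at least 1.68-fold higher than at 0 h.

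MUC5AC, the gel-forming mucin of stomach and airway, passed the rule at 3 h only. Its brightest probe set 217182_at had signals of 10.6, 22.4, 39.9, 28.8, 12.7 and 15.5 in order from 0 to 48 h. The 3 arrays from 1 to 6 h were above the floor and the others under it, which makes the gene at least 2.46-fold higher at 3 h. The other 3 probe sets did not show this. Probe set 217187_at was above the floor at 6 and 24 h, with 20.0 and 20.5, and the remaining pair was under it on all arrays. With the floor at the 65th percentile of all signals, or with the median over the probe sets of the gene, the log2 ratio of MUC5AC at 3 h was 0.09 and 0.00, so this call is not secure.

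**Figure D2:**
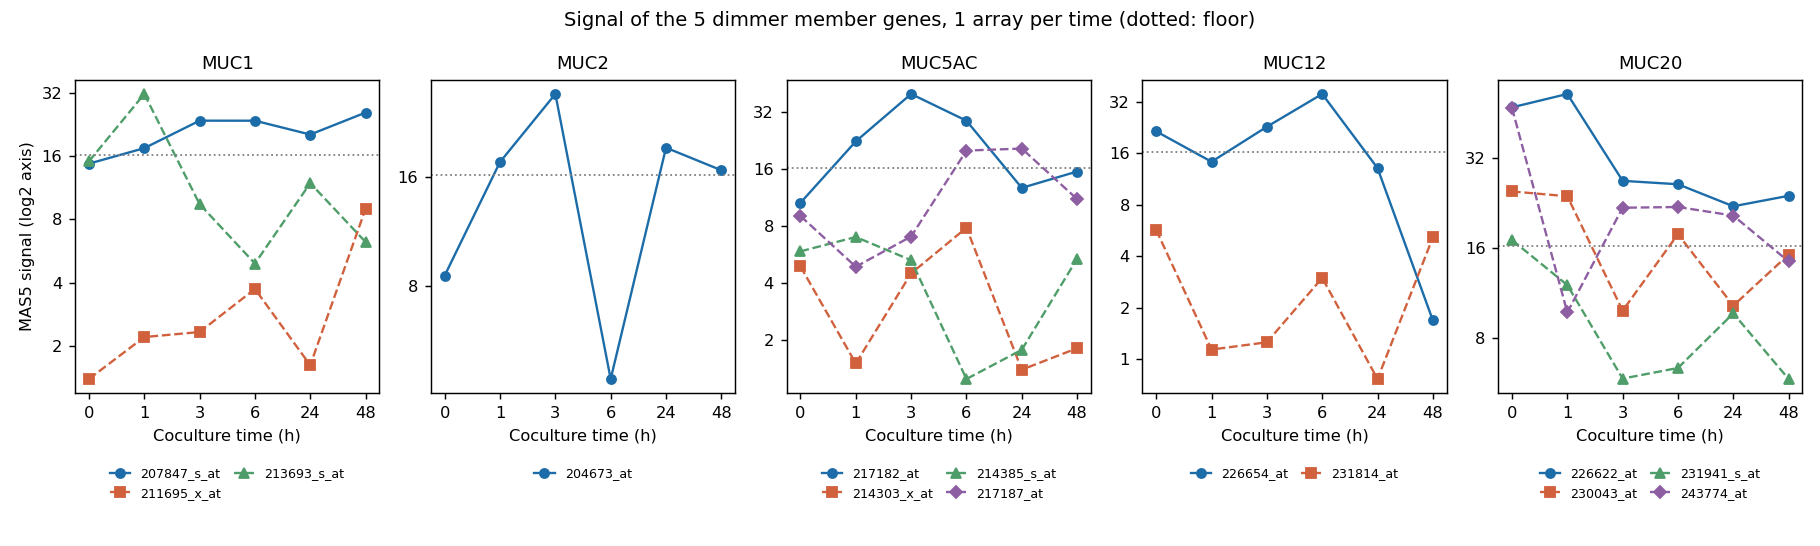
MAS5 signal on a log2 axis against coculture time in hours (evenly spaced, not to scale) for MUC1, MUC2, MUC5AC, MUC12 and MUC20. Each point is 1 array, each line 1 probe set, solid for the brightest of a gene, and the dotted line is the floor of 16.2. Most points lie within a few-fold of the floor, and probe sets of 1 gene often take different courses.

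TFF2, which encodes spasmolytic polypeptide, fell early. Its probe set had signals of 3636, 2568, 1223, 1915, 1368 and 1503 in order from 0 to 48 h. All 5 coculture arrays were below 0 h, and the lowest was that at 3 h. TFF2 was 2.97-fold lower at 3 h, and 0.417% of measured genes had a log2 ratio there at least as low. At 6 h it was 1.90-fold lower and not past the rule, and it was 2.66-fold and 2.42-fold lower at 24 and 48 h. The course between 3 and 48 h had no steady direction, with the 6 h array 1.57-fold above the 3 h array.

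TFF3, the trefoil peptide of intestinal goblet cells, had signals of 505, 393, 360, 256, 189 and 143 in order from 0 to 48 h. Each array was below the one before it. TFF3 was 1.97-fold lower at 6 h, just inside the limit, 2.67-fold lower at 24 h and 3.52-fold lower at 48 h. At 48 h 0.807% of measured genes were at least as low. TFF2 was already 2.97-fold lower at 3 h, a time at which TFF3 was 1.40-fold lower, whereas at 48 h the fall of TFF3 was the larger.

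TFF1, which encodes the gastric peptide pS2, had signals of 2904, 2552, 2772, 2942, 2878 and 1903 in order from 0 to 48 h. The first 5 arrays differed by at most 1.15-fold, and that at 48 h was lowest, 1.53-fold below 0 h. TFF3, TFF2 and TFF1 follow each other in this order on chromosome 21 in RefSeq, with no other protein-coding gene between them. The 3 neighbours therefore differed in timing and size, with log2 ratios at 24 h of -1.42 for TFF3, -1.41 for TFF2 and -0.01 for TFF1. Each trefoil gene had only 1 probe set, so no second reading of these courses was at hand.

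**Figure D3:**
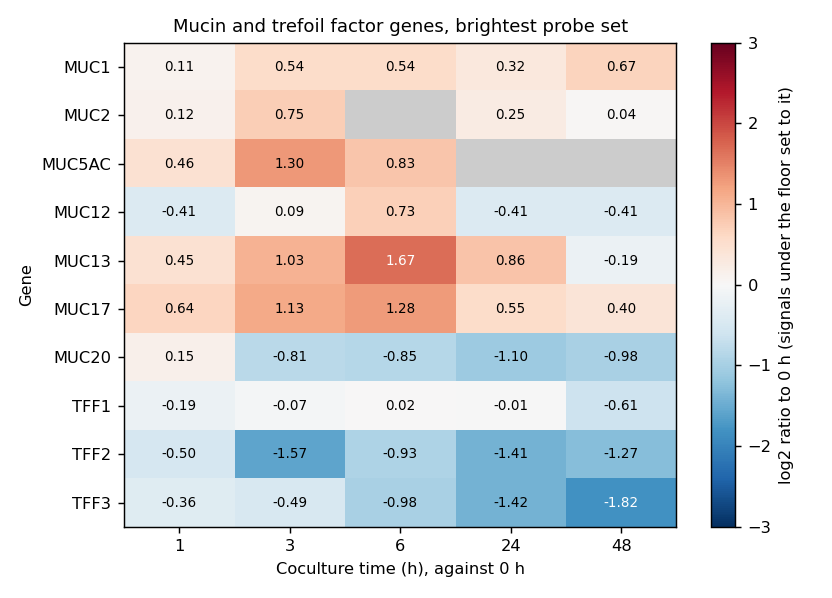
Log2 ratio of each coculture time to 0 h (columns, in hours) for the brightest probe set of the 10 member genes (rows), with signals under the floor set to it. Red is higher than 0 h, blue lower, and grey marks pairs of arrays that were both under the floor. MUC13 reaches 1.67 and MUC17 1.28 at 6 h, and TFF3 reaches -1.82 at 48 h.

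Over the 10 members the median of the log2 ratios (1, 3, 6, 24 and 48 h) was 0.11, 0.32, 0.28, -0.01 and -0.30, against 0.00, -0.02, -0.04, 0.00 and -0.01 over all measured genes. MUC1, MUC2 and MUC5AC were under the floor at 0 h. Their ratios could therefore not be negative, which favours a positive median of the members. The members did not move as 1 group. At 6 h both membrane mucins that passed the rule were higher, and at 48 h both members that passed it were trefoil factors and lower. Of the 17 member probe sets with at least 1 array above the floor, 7 were above it on all 6 arrays. Among these 17, the number higher was 0, 4, 3, 1 and 0 at 1, 3, 6, 24 and 48 h, and the number lower was 1, 2, 1, 4 and 3. The shares of all 28029 such probe sets called higher were 2.82%, 4.99%, 5.88%, 5.06% and 5.36%, and the shares called lower 1.54%, 3.14%, 5.60%, 5.05% and 4.84%.

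Of 17 other mucin genes listed, 14 had a probe set of their own and 7 were measured. Of these 7, 1 was higher and 1 lower at 24 h and 1 was lower at 48 h. Among all measured genes, 1.90%, 3.10%, 4.23%, 3.95% and 3.82% were called higher at 1, 3, 6, 24 and 48 h. The shares called lower were 1.44%, 3.52%, 6.45%, 6.14% and 6.14%. These shares also belong beside the counts of the lists below. MUC5B, MUC7, MUC15, MUC16, MUC19, MUCL1 and EMCN stayed under the floor on all arrays. MUC4, a large membrane mucin and the RefSeq neighbour of MUC20, was 2.32-fold higher at 24 h by its brightest probe set, with a signal of 44.8 at 24 h and 10.6 to 23.1 at the other times, and its second measured probe set had a log2 ratio of 0.00 there. OVGP1, the oviductal mucin-like glycoprotein, fell 2.83-fold at 24 h and at least 3.01-fold at 48 h. CD164, a sialomucin, was within 2-fold at each time by its brightest probe set, while its 3 measured probe sets gave log2 ratios of 0.29 to 1.10 at 48 h.

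Enzymes that build mucin O-glycans moved in both directions. Of 38 listed genes 35 were measured, and 1, 1, 2, 1 and 0 were higher and 0, 1, 1, 2 and 1 lower at 1, 3, 6, 24 and 48 h, with list medians between -0.09 and 0.08. GCNT3, a mucin-type branching enzyme of the intestine, had signals of 262, 408, 945, 720, 374 and 298 in order from 0 to 48 h. Its rise was 3.61-fold at 3 h and 2.75-fold at 6 h, highest at the times when MUC13 and MUC17 were called higher. GCNT1, another enzyme of this list, was called lower at the same times. Its pair of probe sets gave log2 ratios of -1.24 and -0.98 at 3 h and -1.15 and -1.07 at 6 h. B3GNT3, which extends core 1 O-glycans, was 2.55-fold higher at 6 h. ST3GAL2, a sialyltransferase, was 2.70-fold higher at 24 h, and its 4 measured probe sets gave log2 ratios of 0.74 to 1.43. GALNT12, which adds the first sugar of the chain, was 2.61-fold lower at 24 h by its brightest probe set, while its other probe set had a log2 ratio of 0.00.

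Genes of goblet cell secretion formed a list of 34, of which 28 were measured. Of these, 0, 1, 1, 3 and 3 were higher and 1, 1, 4, 4 and 4 lower at 1, 3, 6, 24 and 48 h. At 24 and 48 h 3.95% and 3.82% of all measured genes were higher and 6.14% and 6.14% lower. Whether this list departs from these shares was not tested. ZG16, a mucus lectin, had signals of 490, 396, 314, 193, 116 and 200 in order from 0 to 48 h. It fell 4.23-fold at 24 h. AGR3, a disulfide isomerase family member, had 764, 611, 455, 329, 216 and 279 in order from 0 to 48 h. It fell 3.53-fold at 24 h. Both decreased at each step to 24 h, as TFF3 did, and then were higher at 48 h, where TFF3 was not. AGR2, the related enzyme that MUC2 needs for folding, had log2 ratios between -0.10 and 0.27 by its brightest probe set and of -0.56, -0.65, -0.63, -0.05 and -0.46 by the other. KLF4, a transcription factor of differentiated goblet cells, was 3.76-fold higher at 6 h and had log2 ratios of 1.91 and 2.50 in its pair of probe sets. CREB3L1, a membrane-bound transcription factor, was 3.35-fold higher at 48 h, with a log2 ratio of 0.50 in its other probe set. ATOH1, which specifies secretory cells in the intestine, was above the floor at 1 h alone, with a signal of 18.9, and GFI1 and CLCA1 were under it on all arrays.

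Proteases, channels and partners of mucins and trefoil factors formed a list of 24 genes, 19 of them measured. MEP1A, the alpha subunit of the brush border protease meprin, had signals of 2659, 2503, 2407, 1994, 1155 and 776 in order from 0 to 48 h, a 3.43-fold fall at 48 h. LGALS4, an intestinal lectin, fell 2.25-fold at 48 h. CXCR4, a chemokine receptor to which TFF2 has been reported to bind, was 6.05-fold higher at 6 h by its brightest probe set, and its 3 measured probe sets gave log2 ratios of 0.67 to 2.60. At 1 h its brightest probe set was under the floor and at least 2.39-fold lower, but the ratios of its probe sets reached up to 0.00. ACKR3, the related scavenging receptor, was 4.75-fold higher at 1 h, and its other probe set was higher as well. In all, 1, 2, 2, 1 and 3 genes of this list were higher and 1, 0, 0, 2 and 2 lower at 1, 3, 6, 24 and 48 h.

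Of 26 transcription factors reported to act on mucin or trefoil genes, 20 were measured, and 1, 2, 2, 0 and 0 were higher and 0, 1, 1, 0 and 0 lower. CDX2, an intestinal homeobox factor that binds the MUC2 promoter, had signals of 89.2, 103, 25.4, 36.9, 53.5 and 75.0 in order from 0 to 48 h. It was 3.51-fold lower at 3 h, with a log2 ratio of -1.06 in its other probe set. Its lowest array was that at 3 h, as for TFF2. EGR1, an immediate early factor, was among those higher at 1, 3 and 6 h, and NFKB1, an NF-kB subunit, at 3 and 6 h.

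**Figure D4:**
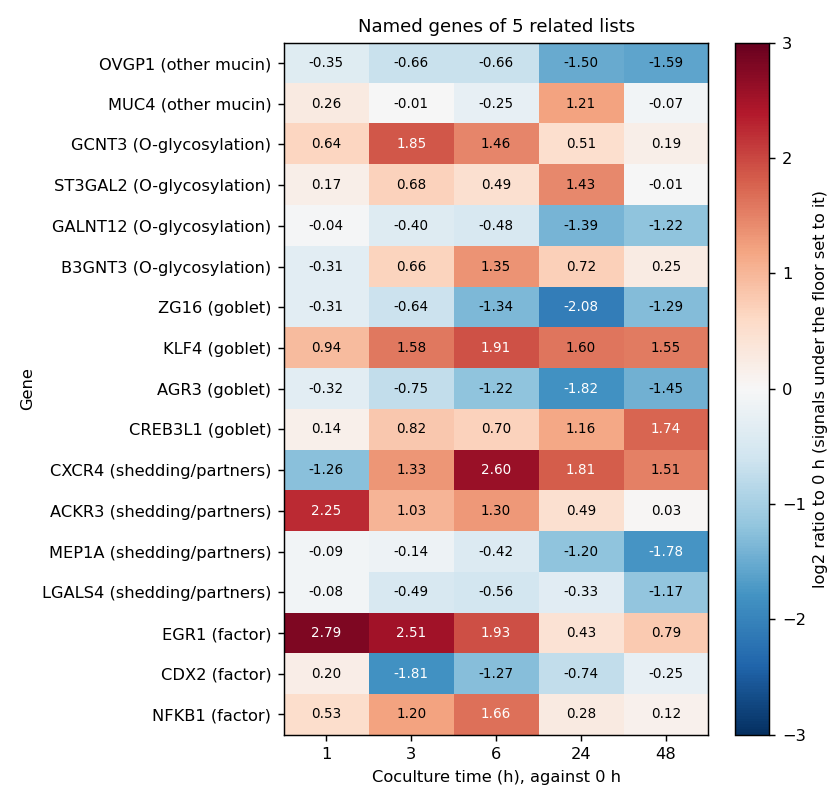
Log2 ratio of each coculture time to 0 h (columns, in hours) for the 17 named genes of the 5 related lists (rows, with the list in brackets), brightest probe set, signals under the floor set to it. Red is higher than 0 h and blue lower. GCNT3 is highest at 3 h (1.85), while ZG16 and AGR3 are lowest at 24 h (-2.08 and -1.82).

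For 5 members that were above the floor on all arrays and spanned at least 2-fold, the 3 genes with the most similar time course were found among 10440 other genes above the floor on all arrays. Likeness was the root mean square difference of the 5 log2 ratios to 0 h, and the 6 arrays and the 0 h baseline are shared by all genes. The nearest to MUC13 were BTG3 (0.15), ISG20 (0.19) and SELENOI (0.19), and the nearest to MUC17 were LOC100190986 (0.09), TIMM23B (0.10) and PITPNM1 (0.11). VSNL1 (0.12), DPCD (0.18) and GIRGL (0.18) were nearest to TFF2. MACROD1 (0.13), BDH2 (0.14) and TRAPPC6A (0.15) were nearest to TFF3, and CLMN (0.11), STRADB (0.13) and SULT1A1 (0.14) to MUC20. BTG3, for example, had log2 ratios of 0.47, 1.09, 1.61, 0.96 and 0.12 at the 5 times. None of these 15 genes was on the related lists.

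Array medians ran from 15.3 to 16.7. A sign of RNA integrity and labelling is the signal of the ACTB control probe set at the 3' end over that at the 5' end. It was 51.2, 27.7, 22.9, 18.0, 27.9 and 37.0 in order from 0 to 48 h. The 3' signal far exceeded the 5' signal on every array. The ratio was highest on the 0 h array, the baseline of every fold change against 0 h. It was lowest at 6 h, where MUC13 and MUC17 were highest. The order of the 6 arrays by this ratio was the reverse of their order by the brightest MUC17 probe set. The same ratio for GAPDH was 4.69, 3.81, 4.29, 3.54, 4.72 and 4.23. The part of RNA integrity and labelling in the changes of the members was not tested. All 14 epithelial markers of Caco-2 cells were above the floor on all arrays, with a summed signal of 26935 to 30347. Singly, 0, 1, 1, 1 and 0 of the 14 were called higher and 0, 1, 1, 1 and 5 lower at 1, 3, 6, 24 and 48 h, while 6.14% of all measured genes were called lower at 48 h. The 5 lower at 48 h, where TFF3 was lowest, were the enterocyte genes SI, FABP1, LGALS4, APOA1 and APOA4, with log2 ratios of -2.17, -2.13, -1.17, -1.06 and -1.06. Their part in the fall of TFF3 was not tested. Of 17 macrophage markers with a probe set, 12 were above the floor on at least 1 array and 5 on all arrays. The others, PTPRC, SPI1, FCGR1A, LST1 and MRC1, were under it on all. The summed signal of the 17 was highest at 0 h, 917, and 582 to 792 later. In these bulk samples, fewer cells that make a transcript and less of it per cell cannot be told apart.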

How the data were processed

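Caco-2 RNA was profiled on 6 Affymetrix arrays from 4 µg of total RNA each, per the labels' protocols. Per the submitters' processing notes the authors used MAS5, and the deposited table holds linear intensities, 1 for each probe set. The MAS5 version, its target and its detection calls are not given in these sources. The 2% trimmed mean was 93.8 on each array, and no further scaling was applied. Of 54675 probe sets, 41097 carried 1 symbol in the annotation table, 6 of which are manufacturer's controls and were left out. Gene identifiers of 41043 were found in RefSeq (GRCh38.p14), which updated the symbols. Lower signals were raised to a floor of 16.2 before log2. A gene is represented by its probe set of highest mean log2 signal, and every member probe set is also given. Folds against an array under the floor are bounds, written "at least". With 1 array per time the number of arrays limits the precision. The named genes are all 10 members, up to 4 genes of each of 5 related lists with the largest called change, and the 3 genes nearest to each of 5 members. MUC3A, CD164, GCNT1, AGR2, ATOH1 and the genes listed as under the floor were named after their values were seen. Members and lists were chosen with earlier results of these data known. Python 3.11.15, numpy 2.4.6 and pandas 2.3.3 were used. The shorter of the NF-kB motifs was added after the matches of the other motifs were seen.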

Additional observations from a re-analysis of the deposited data

How the results depend on the processing

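Quantile normalization and a common median changed no count of members by over 1.5 times and no single call. With the floor at the 30th percentile (6.38), 2 members were higher at 1 h and 1 at 24 h, all of them MUC2 or MUC5AC, as were 4.34% and 7.45% of measured genes. At 48 h MUC12 was called lower with this floor and with the floor value as a pseudocount, as were 8.79% and 4.51% of measured genes. With the median over the probe sets of a gene, 1 member was higher at each of 3, 6 and 24 h, and it was MUC13, with 3.34%, 4.21% and 3.34% of measured genes. With _x_at and _s_at probe sets left out, which leaves none for MUC13, 1 member was higher at 6 h, and 4.35% of genes. Against the 1 h array, 0 members were higher at 3 h, and 1.35% of genes. There MUC17 had log2 ratios of 0.49 and 0.64 at 3 and 6 h, inside 2-fold, MUC13 had 0.59 at 3 h, and MUC12, under the floor at 1 h, was higher at 6 h by at least 1.13. A 1.5-fold rule gave 1, 4, 1 and 1 higher at 1, 6, 24 and 48 h and 2, 3 and 4 lower at 3, 6 and 48 h. The shares of all measured genes by that rule were 6.53%, 11.3%, 12.0% and 11.2% higher and 13.6%, 19.1% and 17.5% lower. A 3-fold rule gave 0 and 1 higher at 3 and 6 h and 0, 0 and 1 lower at 3, 24 and 48 h, these being MUC13 and TFF3, against 0.868% and 1.13% of genes higher and 0.376%, 1.34% and 1.35% lower. The calls of TFF2 and TFF3 held under all 7 alternatives that keep the 0 h baseline and the 2-fold rule. Their log2 ratios were -1.59 to -1.24 for TFF2 and -1.82 to -1.34 for TFF3. Each has 1 probe set, without these suffixes and above both other floors on every array. The changed floors, the median over probe sets and the omission of suffixed probe sets therefore could not move their values. The calls of MUC13 held under the 6 alternatives that give it a value, with 1.00 to 1.89. The changed floors could not move these either. Against 1 h, TFF2 had -0.91 and -0.77 at 24 and 48 h, inside 2-fold. The fall of MUC20 at 24 h was inside 2-fold under 3 of 7 alternatives, the floor at the 65th percentile (37.5), a pseudocount and the median over probe sets. Restricting the rule to genes with a brighter array of at least 100, chosen after seeing the data, left MUC13, MUC17, TFF2 and TFF3. Of 380 single values under 8 alternatives, 356 kept their side of the 2-fold limit, 13 fell inside it, 11 passed it, and no called value changed sign. Most of the 380 were not called to begin with, many of them at or near the floor. The 13 lost calls thus come from the small part that was called, and the 356 do not measure how stable the calls are. No paired analysis was possible because each time had 1 array.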
